A study of Rattus norvegicus with 25 samples.

Results

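The genes Nfic, Pds5a, Trib1, Rasd1, Parpbp, Dbf4, Pkn2, Ctxn3 and Plpp1 were followed in esophageal samples of 25 rats. They are 9 of the 15443 genes that could be named on the array, and they were chosen by their levels on these arrays, high in tocopherol-treated rats against rats given N-nitrosomethylbenzylamine (NMBA) alone. The values of that comparison are therefore given below as a description, and nothing is read from calls counted in it. Each gene was read by 1 probe, named through its RefSeq accession, and all 9 were among the 12343 genes kept because their probe stood well above background on at least 5 of the 25 arrays.

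The 25 male F344 rats fell into 5 groups of 5. Control rats ate a normal diet and received no NMBA, whereas the NMBA group received NMBA on a normal diet. The other groups received NMBA together with alpha-tocopherol, delta-tocopherol or a gamma-enriched tocopherol preparation, called alpha, delta and gamma-enriched below, so every group but Control carried NMBA. The labels and files used here state neither age nor dose, route or duration. Each rat gave 1 array of total RNA labelled with Cy3, a fluorescent dye. A level is the log2 processed signal minus the 75th percentile of that rat's array, so a level of 0 equals that percentile, and levels are compared between rats for 1 gene and not between genes. A difference is given as log2 ± SE (the moderated standard error of limma, n = 5 rats a group).

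Slides and groups were not balanced. All alpha rats and delta rats 1 to 3 were on slide 1. The other delta rats, all gamma-enriched rats and Control rat 1 were on slide 2. NMBA rats 1 to 4 shared slide 3 with the other Control rats, and NMBA rat 5 was alone on slide 4. No slide held both NMBA and tocopherol rats, and Control rat 1 was the single link between them. The share of spots well above background ran from 70.6% to 74.99% in NMBA and from 77.0% to 79.8% in alpha, without overlap. It ran from 74.4% to 76.1% in Control, 74.7% to 77.7% in delta and 72.4% to 78.0% in gamma-enriched. The part of slide and of this share in the differences below was not tested, beyond the fits with slide given beside them.

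NMBA is a nitrosamine that cytochrome P450 enzymes in the rat esophagus turn into an agent that alkylates DNA, and rats given it develop squamous tumours of the esophagus. Tocopherols are the vitamin E family, lipid antioxidants that differ in the methyl groups on a chromanol ring. The genes are not one pathway. Nfic is a transcription factor of the nuclear factor I family, and Pds5a binds the cohesin ring that holds sister chromatids together. Dbf4 activates the kinase Cdc7, which triggers licensed replication origins to fire, and Parpbp binds PARP1 and restrains homologous recombination. Trib1 is a pseudokinase that brings C/EBP alpha to the ubiquitin ligase Cop1, Rasd1 is a Ras-like GTPase induced by glucocorticoids, and Pkn2 is a serine/threonine kinase of the protein kinase N family. Ctxn3 is a small membrane protein of the cortexin family, and Plpp1 is a phosphatase of the cell surface that removes phosphate from lysophosphatidic acid and related lipids.

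Promoters are shown for 5 of the genes, because Pds5a, Dbf4 and Pkn2 varied together across rats, Parpbp varied with genes of mitosis, and Nfic differed most from NMBA at the scaling used here. Each is the 250 bases upstream of the start of the gene in RefSeq's annotation of GRCr8, read 5′ to 3′ on the strand of the gene, and capitals mark the motifs found on either strand (8 of the 9 genes had an entry).
Nfic, chr7:8932919-8933168, plus strand: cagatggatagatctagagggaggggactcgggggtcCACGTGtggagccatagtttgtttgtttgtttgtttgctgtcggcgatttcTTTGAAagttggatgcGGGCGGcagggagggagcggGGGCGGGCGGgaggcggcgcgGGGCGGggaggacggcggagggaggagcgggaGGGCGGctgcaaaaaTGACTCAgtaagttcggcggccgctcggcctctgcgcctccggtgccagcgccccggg
Pds5a, chr14:42906083-42906332, plus strand: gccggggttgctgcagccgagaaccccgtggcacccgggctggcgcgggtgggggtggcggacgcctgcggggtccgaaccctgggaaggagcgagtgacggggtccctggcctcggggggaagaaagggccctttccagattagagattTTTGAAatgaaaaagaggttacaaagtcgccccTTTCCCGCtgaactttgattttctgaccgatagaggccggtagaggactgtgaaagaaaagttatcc
Parpbp, chr7:24461157-24461406, minus strand: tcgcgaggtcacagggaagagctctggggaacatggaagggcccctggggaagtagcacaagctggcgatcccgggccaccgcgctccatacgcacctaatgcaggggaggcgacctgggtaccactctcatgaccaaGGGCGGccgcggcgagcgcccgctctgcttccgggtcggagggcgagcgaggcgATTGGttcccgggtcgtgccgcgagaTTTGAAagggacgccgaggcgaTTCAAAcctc
Dbf4, chr4:26631336-26631585, plus strand: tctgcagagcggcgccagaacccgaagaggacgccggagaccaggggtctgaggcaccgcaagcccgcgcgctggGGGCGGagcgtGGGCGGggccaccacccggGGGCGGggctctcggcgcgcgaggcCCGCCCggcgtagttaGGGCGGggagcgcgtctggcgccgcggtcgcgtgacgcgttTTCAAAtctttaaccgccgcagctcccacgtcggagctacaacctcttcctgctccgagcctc
Pkn2, chr2:234559370-234559619, minus strand: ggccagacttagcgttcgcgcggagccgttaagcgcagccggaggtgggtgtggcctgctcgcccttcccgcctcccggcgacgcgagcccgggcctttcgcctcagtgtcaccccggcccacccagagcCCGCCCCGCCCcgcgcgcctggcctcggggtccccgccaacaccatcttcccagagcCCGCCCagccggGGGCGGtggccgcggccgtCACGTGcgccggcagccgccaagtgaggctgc

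The motifs searched were GGGCGG (GC box), TTTGAA (cell cycle homology region, CHR), TTTCCCGC and TTTGGCGC (E2F), TGANTCA (AP-1), TGACGTCA (cyclic AMP response element), CACGTG (E-box), CCAAT and TTGGCA (a partial nuclear factor I site). A GC box was found 5 times upstream of Nfic (2 of these share bases), 5 times upstream of Dbf4, 4 times upstream of Pkn2 (2 sharing a base), and 1 time each upstream of Parpbp and Rasd1. It is present in 30.5% of the 33469 promoters of the same length. TTTGAA occurred 2 times each upstream of Parpbp and Ctxn3 and 1 time each upstream of Nfic, Pds5a and Dbf4, against 16.2% of all promoters. TTTCCCGC occurred upstream of Pds5a and is present in 0.813% of promoters, whereas CCAAT, upstream of Parpbp, is present in 34% and TGANTCA, upstream of Nfic, in 6.34%. CACGTG occurred upstream of Nfic and Pkn2 and is present in 5.59% of promoters. The letters of the other motifs searched were not in the windows of the 8 genes. The G and C content was 66.4% for Nfic and for Parpbp, 59.6% for Pds5a, 72.8% for Dbf4 and 76.8% for Pkn2. It was 64% for Rasd1, 70% for Plpp1 and 42.8% for Ctxn3, against a median of 51.2% over all promoters.

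Nfic, the transcription factor, had the largest difference of the genes at this scaling. In NMBA rats 1 to 5 its level was -6.87, -6.96, -5.85, -6.07 and -6.67, and in Control rats -4.93, -6.21, -6.27, -4.98 and -5.52. In alpha it was -4.37, -4.31, -3.40, -4.04 and -3.64, in delta -5.16, -4.47, -4.85, -5.55 and -4.99 and in gamma-enriched -4.19, -4.86, -4.69, -5.19 and -5.62. All 15 tocopherol rats lay above all 5 NMBA rats, and alpha lay above delta and Control without overlap. The differences from NMBA were 2.53 in alpha, 1.48 in delta and 1.57 in gamma-enriched, each ± 0.31. The probe stood well above background in 1 of the 5 NMBA rats, where its processed signal was 33 to 99 units, and in all rats of the other groups, with 149 to 493 units in alpha. Its level in NMBA is thus near the limit of the measurement, and with normexp background correction, which adds an offset, the differences were 1.37, 0.64 and 0.66.

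Pds5a, the cohesin regulator, was at -7.78, -7.65, -6.56, -6.42 and -6.35 in NMBA rats 1 to 5 and at -5.57, -6.48, -6.87, -6.38 and -6.16 in Control. It was at -5.54, -5.57, -5.59, -4.31 and -5.89 in alpha, -5.85, -4.91, -4.96, -5.89 and -5.76 in delta and -4.56, -5.38, -5.01, -5.66 and -5.14 in gamma-enriched. NMBA rats 1 and 2 were the lowest of all 25, and again no tocopherol rat reached down to any NMBA rat. Pds5a differed from NMBA by 1.57, 1.48 and 1.80 in alpha, delta and gamma-enriched (± 0.33). This probe stood above background in 1 NMBA rat and 3 Control rats, and in every tocopherol rat, and with normexp the differences were 0.59, 0.50 and 0.60.

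Dbf4, the activator of Cdc7, was spread widely in NMBA, at -5.46, -4.73, -4.77, -3.46 and -4.50, and lay at -3.83, -4.74, -3.96, -4.46 and -3.66 in Control. In gamma-enriched the 5 rats lay close together at -2.94, -3.29, -2.97, -3.13 and -3.01, all above every NMBA and every Control rat. The values in delta were -3.28, -2.87, -2.94, -3.96 and -3.52 and those in alpha -3.45, -4.45, -3.42, -2.58 and -4.84, and both groups overlapped NMBA. Differences from NMBA were 0.84 in alpha, 1.27 in delta and 1.51 in gamma-enriched (± 0.36). Leaving out 1 rat at a time moved the alpha difference between 0.54 (without alpha rat 4) and 1.12 (without NMBA rat 4).

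Parpbp, the inhibitor of recombination, varied most among NMBA rats, at -8.11, -7.44, -6.27, -5.18 and -5.13, and was -6.07, -4.44, -4.78, -7.05 and -6.25 in Control. It was -5.60, -5.97, -6.53, -4.64 and -6.34 in alpha, -4.95, -5.92, -4.55, -4.72 and -5.07 in delta and -4.83, -4.39, -4.70, -4.64 and -5.13 in gamma-enriched. The gamma-enriched rats were the most even group (SD 0.271 against 1.33 in NMBA), and their lowest rat equalled the highest NMBA rat to the second decimal. Against NMBA the differences were 0.61 in alpha, 1.38 in delta and 1.69 in gamma-enriched (± 0.52). The alpha difference was 0.19 without NMBA rat 1 and 0.93 without NMBA rat 5. The probe, a single spot, stood above background in 2 NMBA rats, 4 Control rats, 4 alpha rats and all rats of the other groups. With normexp the differences of Parpbp were 0.03, 0.34 and 0.60.

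Trib1, the pseudokinase, was at -5.84, -6.36, -5.69, -6.36 and -5.74 in NMBA and -4.84, -5.47, -5.41, -5.58 and -5.43 in Control. It was at -4.19, -5.15, -3.92, -3.82 and -4.16 in alpha, -5.07, -4.87, -5.07, -5.49 and -5.29 in delta and -4.98, -5.01, -4.36, -5.31 and -5.16 in gamma-enriched. Each NMBA rat lay below each rat of the other groups. Alpha rats 1, 3, 4 and 5 were the highest of the 25, and alpha rat 2 lay apart from them among the delta rats. The differences from NMBA were 1.75 in alpha, 0.84 in delta and 1.03 in gamma-enriched (± 0.23), and with normexp 0.96, 0.27 and 0.39. The probe stood above background in 3 of the 5 NMBA rats, where its processed signal was 54 to 105 units. It did so in all rats of the other groups.

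Rasd1, the Ras-like GTPase, had another order of groups. NMBA rats were even, at -4.59, -4.31, -4.65, -4.63 and -4.73, and Control rats lay just above them at -3.79, -4.22, -3.48, -3.76 and -3.92. Alpha rats were at -2.46, -2.99, -3.40, -3.73 and -2.39 and delta rats at -2.68, -2.90, -3.72, -3.47 and -4.19, all above NMBA, whereas gamma-enriched rats, at -4.13, -4.08, -5.45, -3.67 and -4.55, overlapped NMBA and held the lowest rat of all. Set against NMBA, Rasd1 differed by 1.59, 1.19 and 0.20 in alpha, delta and gamma-enriched (± 0.30). All 25 arrays measured this probe above background.

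Pkn2, the protein kinase, was at -5.16, -4.79, -5.47, -4.86 and -5.04 in NMBA and -2.96, -3.83, -4.76, -4.40 and -4.61 in Control. It was at -4.19, -4.16, -4.36, -2.60 and -4.71 in alpha, -4.33, -3.98, -3.18, -4.19 and -3.91 in delta and -3.52, -3.60, -3.12, -4.67 and -3.33 in gamma-enriched. All 5 NMBA rats lay below every rat of the other groups, though the lowest Control and alpha rats came close to the highest of them. Control rat 1, on the slide of the gamma-enriched rats, was higher than any of those 5. Pkn2 differed from NMBA by 1.06, 1.15 and 1.42 (± 0.36) in alpha, delta and gamma-enriched, and by 0.71, 0.73 and 0.93 with normexp.

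Ctxn3, the cortexin, differed from NMBA mainly in delta. Its level was -3.99, -4.04, -4.83, -3.74 and -4.66 in NMBA, -3.04, -4.39, -2.78, -3.02 and -3.26 in Control and -2.73, -1.70, -3.33, -1.28 and -3.15 in delta. The delta rats lay above all NMBA rats, while alpha, at -3.00, -4.77, -4.89, -3.80 and -2.13, and gamma-enriched, at -4.56, -4.06, -4.39, -3.19 and -3.37, overlapped them. Alpha rats were the most widely spread, with an SD of 1.18, and held the lowest rat of all. The differences from NMBA were 0.53, 1.81 and 0.34 in alpha, delta and gamma-enriched (± 0.48).

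Plpp1, the lipid phosphatase, showed the smallest differences from NMBA in alpha and delta. It was at 1.30, 1.16, 1.42, 1.36 and 0.34 in NMBA, 1.27, 1.77, 1.56, 1.14 and 1.38 in alpha, 1.95, 1.71, 1.21, 1.28 and 1.49 in delta and 1.20, 1.51, 0.89, 1.65 and 1.60 in gamma-enriched. All these groups overlapped, and NMBA rat 5 was the lowest of them. The differences were 0.31, 0.41 and 0.26 (± 0.46), and without NMBA rat 5 they were 0.11, 0.22 and 0.06. In Control the level was -1.92, 1.43, 1.65, 1.61 and 1.82. Control rat 1 stood apart: its 2 spots of the probe read 19743 and 152 units, 7.02 apart on the log2 scale, whereas the spots differed by at most 1.02 in the other 24 rats. The scanner software did not mark the dim spot.

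**Figure D1:**
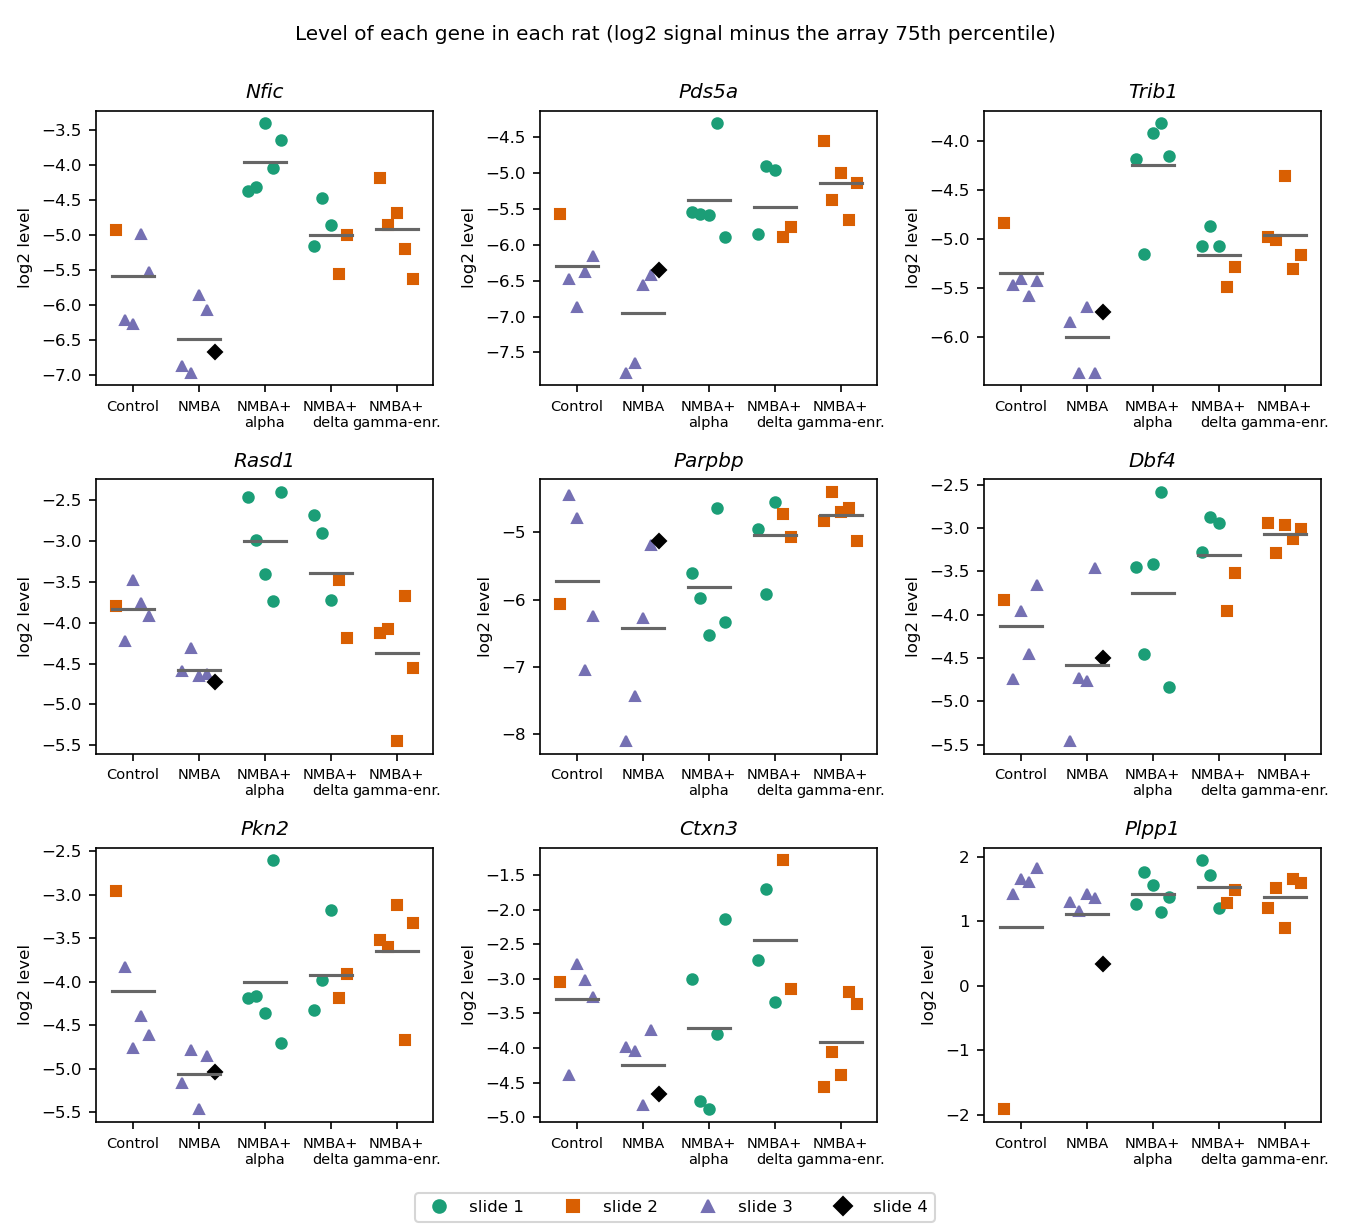
Level of each gene in each rat (y axis, log2 processed signal minus the array's 75th percentile) by group (x axis), with rats in number order from left to right, a grey bar at the group mean and colour and shape for the slide. In Nfic, Pds5a, Trib1 and Pkn2 all tocopherol rats lie above all NMBA rats, and in Plpp1 Control rat 1 lies at -1.92.

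Over the 9 genes, 27 of 27 differences from NMBA were above 0, which the choice of the genes largely fixed; 26.6% of the 12343 genes tested were above 0 in all 3. In alpha 4 genes passed the threshold as higher (limma, Benjamini-Hochberg over all genes tested, adjusted p under 0.05), against 1.3% of all genes. In delta 5 did, against 0.47%, and in gamma-enriched 6, against 1.59%. Groups did not overlap for 5 genes in alpha (1.73% of all genes), 6 in delta (1.7%) and 6 in gamma-enriched (1.92%). Since this contrast chose the genes, nothing is read from these counts. The median difference of the 9 genes was 1.06 in alpha, 1.27 in delta and 1.42 in gamma-enriched, against -0.03, -0.05 and -0.10 over all genes tested. The comparisons share the 5 NMBA rats, so their agreement is no separate evidence.

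Slide changed most of these values. With slide as a fixed block, the link between NMBA and tocopherol rats rests on Control rat 1, and NMBA rat 5, alone on its slide, no longer enters the difference. The standard errors of the 8 genes other than Plpp1 rose to between 0.44 and 1.30. Nfic was then higher than NMBA by 1.22 ± 0.76 in alpha, 0.35 ± 0.68 in delta and 0.71 ± 0.62 in gamma-enriched. Pds5a was higher by 0.23 ± 0.78, 0.37 ± 0.69 and 1.05 ± 0.64 in the same order, and Trib1 by 0.79 ± 0.54, 0.04 ± 0.48 and 0.46 ± 0.44. These 3 genes kept their sign at smaller sizes. Pkn2 turned to -0.60 ± 0.86, -0.43 ± 0.76 and -0.02 ± 0.70, and Dbf4 to -0.23 ± 0.91 in alpha with 0.49 ± 0.81 in delta and 1.16 ± 0.75 in gamma-enriched. Parpbp grew to 1.62 ± 1.30, 2.30 ± 1.15 and 2.45 ± 1.06. Rasd1 was at 0.76 ± 0.77, 0.66 ± 0.68 and 0.11 ± 0.63, and Ctxn3 at 0.48 ± 1.26, 1.61 ± 1.12 and -0.08 ± 1.03. Apart from Plpp1 none of the 9 passed the threshold in this fit of all 12343 genes, and slide and treatment cannot be told apart beyond that 1 rat.

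The values of Plpp1 in that fit turned on Control rat 1. With slide as a fixed block its differences from NMBA were 3.43 ± 0.41 in alpha, 3.62 ± 0.37 in delta and 3.61 ± 0.34 in gamma-enriched, and it was the 1 gene of 12343 past the threshold in each. Without the dim spot of Control rat 1, an alternative added after the data were seen, they were -0.08, 0.11 and 0.10, and 0 genes passed. Control rat 1 was also the highest Control rat in Nfic, Pds5a, Trib1 and Pkn2, 4 of the 9 genes, against 19.9% of all genes tested. It lay above the mean of the other Control rats by 0.82 in Nfic, 0.90 in Pds5a, 0.63 in Trib1 and 1.44 in Pkn2. The gamma-enriched rats, on the same slide, differed from it in the mean by 0.02 in Nfic, 0.43 in Pds5a, -0.12 in Trib1 and -0.69 in Pkn2. In Dbf4 and Parpbp all 5 gamma-enriched rats lay above it, by 0.76 and 1.33 in the mean.

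**Figure D2:**
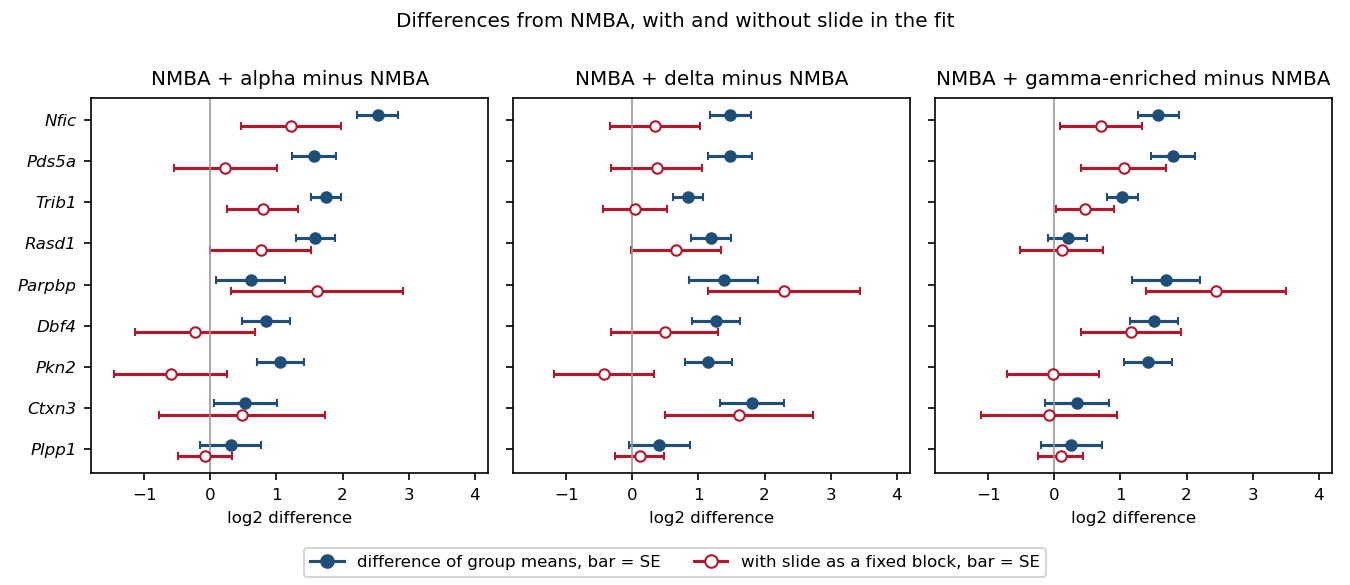
Difference from NMBA (x axis, log2) of each gene (y axis) in alpha, delta and gamma-enriched. Filled points are differences of group means and open points come from the fit with slide as a fixed block and without the dim Plpp1 spot of Control rat 1; bars are ± SE. Open points lie nearer 0 than filled ones for Nfic, Pds5a and Trib1 in all 3 panels, and for Pkn2 they lie at -0.60, -0.43 and -0.02.

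NMBA against Control compares these genes between rats given NMBA alone and rats without NMBA. The NMBA rats that this comparison uses also served in choosing the genes, and the choice favours genes low in those rats. Its p-values, and the counts, overlaps and median below, are therefore not independent of the choice. The values over all genes beside them were not chosen in that way, so nothing is read from the contrast between them. The mean in NMBA was below Control in 8 of the 9 genes. The differences were -0.95 ± 0.36 in Pkn2, -0.95 ± 0.48 in Ctxn3, -0.90 ± 0.31 in Nfic and -0.75 ± 0.30 in Rasd1. They were -0.71 ± 0.52 in Parpbp, -0.66 ± 0.33 in Pds5a, -0.65 ± 0.23 in Trib1 and -0.45 ± 0.36 in Dbf4. Nfic and Pds5a stood above background in 1 of 5 NMBA rats each, Parpbp in 2 and Trib1 in 3. With normexp the differences were -0.64 in Pkn2, -0.71 in Ctxn3, -0.29 in Nfic and -0.47 in Rasd1. For Parpbp, Pds5a, Trib1 and Dbf4 they were then -0.26, -0.08, -0.29 and -0.25. No gene passed the threshold in limma (0 of 9, against 1.55% of all genes), and 4 had an unadjusted p under 0.05. Their limma adjusted p-values were 0.185 for Nfic, 0.198 for Trib1, 0.255 for Pkn2 and 0.298 for Rasd1. NMBA and Control rats did not overlap in Trib1, Rasd1 and Pkn2, 3 of 9 genes against 1.49% of all genes that lay lower without overlap. The median over the 9 genes was -0.71, against 0.05 over all genes. Within slide 3, which held 4 rats of each group, the differences were -0.69 ± 0.35 in Nfic, -0.59 ± 0.18 in Trib1, -0.70 ± 0.17 in Rasd1 and -0.67 ± 0.23 in Pkn2. Plpp1 went from 0.20 ± 0.46 to -0.32 ± 0.13 within slide 3, where Control rat 1 is absent.

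Against Control, 2 genes passed the threshold in alpha, Nfic at 1.63 ± 0.31 (limma adjusted p = 0.0124) and Trib1 at 1.1 ± 0.23 (limma adjusted p = 0.0213), both higher, against 0.818% of all genes. All alpha rats lay above all Control rats in Nfic (1 of 9 genes, against 2.46% of all genes), and in Trib1 24 of 25 pairs of rats did. Alpha and Control rats shared no slide, and with slide as a fixed block these differences were 0.53 ± 0.68 and 0.20 ± 0.49. Trib1 also lost the call without alpha rat 1 or 4, or Control rat 4 or 5, with differences of 0.99 to 1.08. In delta 0 of 9 passed (0.194% of all genes), with an unadjusted p under 0.05 in limma for Pds5a at 0.82 ± 0.33 and Dbf4 at 0.82 ± 0.36. In gamma-enriched 0 of 9 passed (0.632%), and 3 had an unadjusted p under 0.05 in limma. These were Pds5a at 1.14 ± 0.33 (adjusted p = 0.0994), Dbf4 at 1.06 ± 0.36 (adjusted p = 0.142, no overlap with Control, as for 1.73% of all genes) and Nfic at 0.67 ± 0.31 (adjusted p = 0.242). Without Control rat 1, the single Control rat on the slide of the gamma-enriched rats, Pds5a passed in gamma-enriched at 1.32. These groups then shared no slide. Rasd1 and Ctxn3 lay at -0.54 ± 0.30 and -0.62 ± 0.48 in gamma-enriched, below Control and not past the threshold. With slide as a fixed block Pds5a was at -0.25 ± 0.60 in delta, with its sign turned, and 0.43 ± 0.53 in gamma-enriched. Dbf4 was then at 0.09 ± 0.70 and 0.76 ± 0.63, and Nfic in gamma-enriched at 0.02 ± 0.52. These comparisons use the tocopherol rats that served in choosing the genes, so their p-values are not independent of the choice.

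The tocopherols were then compared with each other in 3 pairs, each gene adjusted over all genes tested within a pair. Doses are not given in the labels and may not match. These are the tocopherol rats that served in choosing the genes, so here too the p-values are not independent of the choice. Rasd1 was lower in gamma-enriched than in alpha by -1.38 ± 0.30 (95% interval -2.01 to -0.75, limma adjusted p = 0.0218), the 1 call of 9 genes against 1.62% of all genes. In 1 of 25 pairs of rats did the gamma-enriched rat lie above the alpha rat. No slide held both groups: with slide as a fixed block the difference was -0.65 ± 0.54, and the call was also lost without alpha rat 1, 2 or 5 or gamma-enriched rat 2 or 5, at -1.45 to -1.23. Against delta, Rasd1 in gamma-enriched was at -0.99 ± 0.30 (interval -1.62 to -0.36), not past the threshold, and at -0.55 ± 0.46 within slide 2. Besides Rasd1, Nfic, Trib1 and Parpbp had an unadjusted p under 0.05 in limma in gamma-enriched against alpha. Their differences were -0.96 ± 0.31, -0.71 ± 0.23 and 1.08 ± 0.52, not past the threshold. With slide as a fixed block they were -0.51 ± 0.53, -0.33 ± 0.38 and 0.83 ± 0.91.

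Delta against alpha gave 0 calls, both among the 9 genes and among all genes tested (0%), and 3 of the 9 had an unadjusted p under 0.05 in limma. Nfic was at -1.05 ± 0.31 (interval -1.69 to -0.42) without overlap, as 0.47% of all genes, Trib1 at -0.91 ± 0.23 (-1.37 to -0.44) and Ctxn3 at 1.28 ± 0.48 (0.30 to 2.26). Within slide 1, which held all alpha rats and delta rats 1 to 3, they were -0.88 ± 0.27, -0.75 ± 0.29 and 1.13 ± 0.65. Gamma-enriched against delta also gave 0 calls (0% of all genes), and 2 of the 9 had an unadjusted p under 0.05 in limma, Rasd1 and Ctxn3. Ctxn3 was at -1.47 ± 0.48 (-2.46 to -0.49), and at -1.70 ± 0.56 within slide 2. Pds5a differed among the tocopherols by -0.09 (interval -0.78 to 0.59) in delta against alpha, 0.23 (-0.46 to 0.91) in gamma-enriched against alpha and 0.32 (-0.36 to 1.01) in gamma-enriched against delta. These intervals leave room for differences of either sign. Pds5a was at 0.14 ± 0.37 in delta against alpha within slide 1, at 0.68 ± 0.29 in gamma-enriched against delta within slide 2, and at 0.82 ± 0.54 in gamma-enriched against alpha with slide as a fixed block.

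Each array carried 2 spots of 7 of the probes, all but those of Parpbp and Ctxn3, which gives another reading of the same RNA. The median difference between spots was 0.434 in Nfic, 0.441 in Pds5a, 0.356 in Dbf4, 0.343 in Pkn2, 0.277 in Trib1, 0.252 in Plpp1 and 0.160 in Rasd1. It was 0.194 over the 2426 probes with 2 spots and a mean level within the range of these genes other than Plpp1. Each spot alone gave differences from NMBA above 0 in all 3 tocopherol groups for all 7 probes. This contrast chose the genes and both spots enter their level, so these signs were largely fixed by the choice. For Nfic the differences on the 2 spots were 2.48 and 2.58 in alpha, 1.36 and 1.59 in delta and 1.24 and 1.90 in gamma-enriched. For Pds5a they were 1.35 and 1.79 in alpha, 1.44 and 1.51 in delta, and 1.60 and 2 in gamma-enriched.

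**Figure D3:**
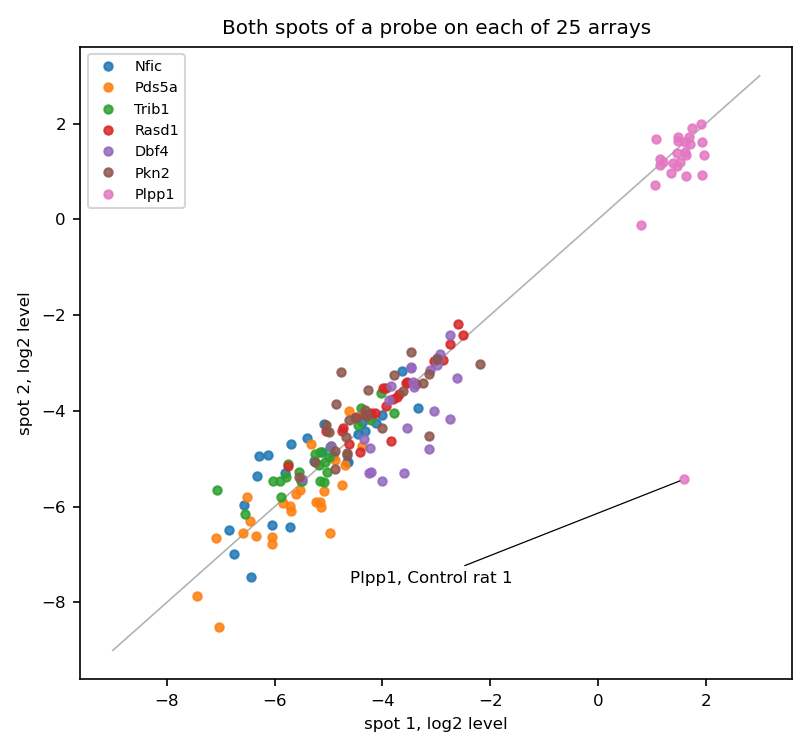
Level on spot 1 (x axis, log2) against level on spot 2 (y axis, log2) for the 7 genes with 2 spots, 1 point per rat, with a line of equality. Points follow the line within 1.69 except Plpp1 in Control rat 1, where the spots are 7.02 apart.

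Across the 25 rats, which share groups, slides and the choice of the genes, some of the genes varied together. Pearson's r was 0.86 between Nfic and Trib1, 0.83 between Pds5a and Dbf4, 0.78 between Pds5a and Pkn2 and 0.66 between Dbf4 and Pkn2. After each group's mean was taken off, r was 0.43, 0.69, 0.64 and 0.44 for these pairs. Rasd1 and Ctxn3 kept theirs (0.55 and 0.53), while Rasd1 and Pkn2 were at -0.02 over all rats and -0.56 within groups. Of the 12331 other genes with a settled symbol, those most like Parpbp were Kif11 (0.90), Cenpf (0.88) and Nuf2 (0.88), which serve the mitotic spindle and kinetochore, with 0.88, 0.82 and 0.87 within groups. Those most like Dbf4 were Qsox2 (0.88), Ppfia1 (0.87) and Ifrd1 (0.87), and those most like Pds5a were Muc15 (0.88), Naa15 (0.86) and Ppfia1 (0.86). For Pkn2 they were Wwp1 (0.89), Ggta1 (0.89) and Son (0.83). Ctxn3 was most like Barx1 (0.92), a homeobox factor of the foregut, Tac3 (0.85) and Rspo3 (0.84), and Rasd1 was most like Apold1 (0.85), Sema3c (0.82) and Fgf2 (0.81). Trib1 was nearest to Dnajc21 (0.86), Nfic (0.86) and Rhbdd2 (0.81), and Nfic to Trib1, Dnajc21 (0.82) and Ddx49 (0.77). For Plpp1, Bsn (0.70), Myl3 (0.65) and Tmem59l (0.63) came first, with Control rat 1 included. Within groups r was 0.40 to 0.62 for the genes most like Nfic and Trib1 and 0.66 to 0.88 for those of the other 7 genes.

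**Figure D4:**
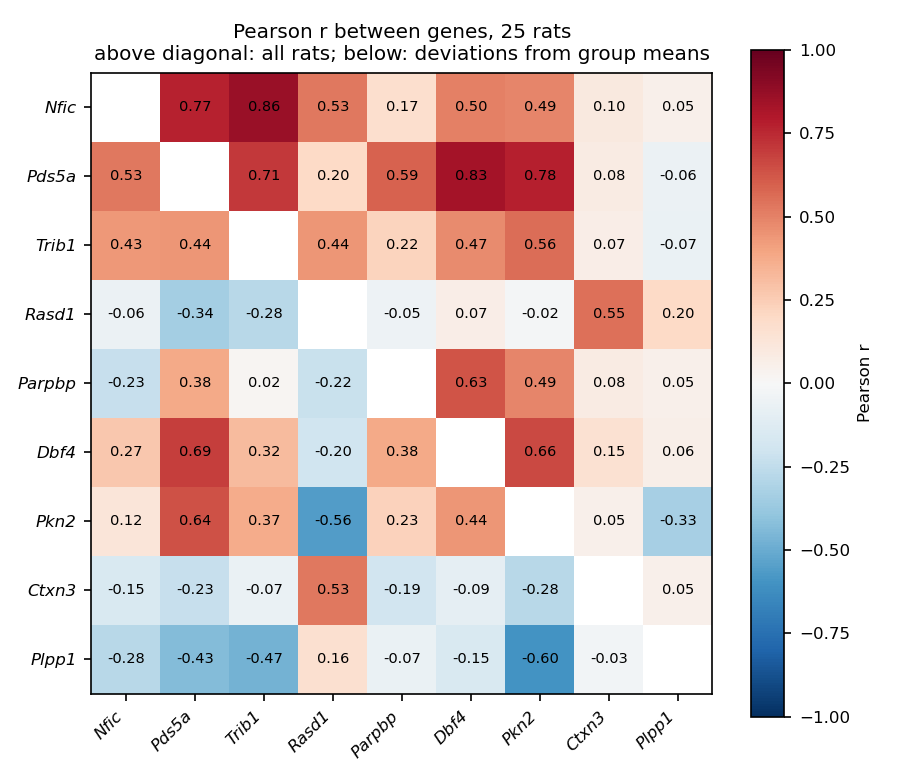
Pearson's r for each pair of genes over the 25 rats, above the diagonal from all levels and below it from deviations from group means, with the colour scale from -1 to 1. Pds5a, Dbf4 and Pkn2 keep r of 0.44 to 0.69 below the diagonal, and Nfic and Trib1 go from 0.86 to 0.43.

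Relatives and partners of the 9 genes gave few calls. Of 91 listed genes 79 were tested, and the median difference from NMBA was 0.06 in alpha, 0.07 in delta and 0.01 in gamma-enriched. In alpha 1 rose and 1 fell (3.82% of all genes passed), in delta 0 passed (2.49% of all genes), with 11 at an unadjusted p under 0.05 in limma, and in gamma-enriched 3 rose and 1 fell (8.95% of all genes). In the cohesin list (11 of 13 tested), Rad21, a subunit of the ring that Pds5a binds, rose in gamma-enriched by 0.56 ± 0.16 (limma adjusted p = 0.0353). Of the recombination list (10 of 13), Parp1, the partner of Parpbp, fell in gamma-enriched by 0.33 ± 0.10 (limma adjusted p = 0.04).

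The list around Plpp1 (14 of 16 tested) gave 3 calls, 1 in alpha and 2 in gamma-enriched, where 3.82% and 8.95% of all genes passed. Lists differed in size, and nothing is read from this count. Lpar3, a receptor for lysophosphatidic acid, fell in alpha by 1.06 ± 0.22 (limma adjusted p = 0.0101). Lpar4, another such receptor, rose in gamma-enriched by 1.11 ± 0.26 (limma adjusted p = 0.0104), as did Plpp2, a phosphatase of the same family, by 0.88 ± 0.28 (limma adjusted p = 0.0478). No member of the nuclear factor I list (3 of 3), the Tribbles list (5 of 5), the Rasd1 list (8 of 8), the origin firing list (18 of 20) or the cortexin list (1 of 2) passed in limma. Nfib was at -0.02, -0.06 and -0.12 and Nfix at -0.15, -0.29 and -0.25 in alpha, delta and gamma-enriched. Mcm7, of the helicase that Cdc7 and Dbf4 act on, was at -0.33, -0.15 and -0.52, and Gins4 at -0.05, -0.11 and -0.15. These 2 were named for their signal and do not stand for their list. Of its 18 genes tested, 9 in alpha, 10 in delta and 6 in gamma-enriched were above 0. Cebpb was at -0.32, -0.43 and -0.42 and Cop1 at 0.11, 0.12 and 0.14. Diras1 was at -0.04, -0.12 and 0.09, Acbd3 at 0.07, 0.00 and 0.15, and Ctxn1 at -0.58, 0.37 and -0.32. With slide as a fixed block 0 of the 79 passed in any of the 3 comparisons, in fits where 0.0081% of all genes did.

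Markers of squamous epithelium (10 of 12 tested) were high in all 25 rats. The log2 of the sum of their unlogged levels ran from 7.46 to 7.83 in NMBA and from 6.88 to 7.38 in delta, without overlap. It ran from 6.92 to 7.71 in Control, 7.07 to 7.72 in alpha and 6.76 to 7.58 in gamma-enriched. The brightest markers weigh most in this sum. Of these 10 markers 1 passed the threshold against NMBA in alpha, 1 in delta and 4 in gamma-enriched, counted in either direction. The shares of all genes were 3.82%, 2.49% and 8.95% in the same order. Markers of T and NK cells (9 of 10 tested) also moved with the groups. The log2 of their summed levels ran from 0.28 to 2.08 in NMBA and from -0.35 to 0.38 in alpha. It ran from -0.71 to 0.49 in delta, -1.06 to 0.22 in gamma-enriched and -0.79 to 0.27 in Control. Of these 9 markers 6 passed the threshold in alpha, 7 in delta and 7 in gamma-enriched against NMBA, beside the same shares of all genes. On the same scale, markers of smooth muscle lay between 5.03 and 6.55 over all rats, and those of skeletal muscle between 4.61 and 7.06. Their part in the levels of the 9 genes was not tested, and in whole tissue fewer cells of a type and less RNA per cell cannot be told apart.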

How the data were processed

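Total RNA from 25 rats was hybridised to 1-colour Agilent arrays, 1 array per rat. Per the file headers the deposited scanner values are fluorescence intensities in processed-signal form, background-subtracted within each array, from Agilent Feature Extraction 11.5.1.1; the submitters' processing notes name version 10.7. The authors' deposited value table is on a log2 scale and followed the log2 processed signal of each array (lowest r 1, as rounded), and served as an alternative. Columns of other series numbered 0.

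Spots marked non-uniform or as population outliers were dropped, the remaining spots of a probe were averaged as log2 processed signal, and each array's 75th percentile over non-control spots was taken off. A probe was well above background on an array when at least 50% of its spots were. Probes so measured on at least 5 arrays were kept, and the probe of highest mean signal stood for its gene. Of 30367 probes, 18355 matched 1 symbol, 12012 none and 0 several. The table of names and the promoters are from RefSeq on GRCr8.

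All 25 arrays entered 1 fit of 5 group means in limma 3.58.1 (R 4.3.3; 20 residual and 3.09 prior degrees of freedom), two-sided, with Benjamini-Hochberg adjustment over 12343 genes within each of 10 contrasts at 0.05. The fit was tested on simulated data. Alternatives were quantile normalization, normexp (offset 50, on median spot signals, since no mean signal is given in the files), the value table, other filters, the mean of a gene's probes, slide as a fixed or random block, fits within 1 slide or of the groups compared alone, the rat number as a replicate block, and each rat left out. Those on the dim Plpp1 spot and the array column were added after the data were seen. Rats with the same number deviated together in 12 of 50 pairs (r over 0.1), with r from -0.58 to 0.53, so the numbers did not pair the rats.

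The 9 genes and all gene lists were chosen with earlier results of these data known. Named besides them were called relatives (up to 4 per list, otherwise up to 2 with the highest signal) and, for each gene, the 3 genes with the highest r. The replicates are separate rats per the labels' titles. The values of 1 of the gene lists are not reported here beyond their part in the counts over all relatives.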

Additional observations from a re-analysis of the deposited data

Results flagged for a closer look

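In 45 groups of 5 rats (9 genes in 5 groups), a rat stood apart from the other 4 by Dixon's criterion in 6, and chance gives about 1 in 20. Alpha rat 4 was the highest alpha rat in Pds5a, at -4.31 with the next at -5.54, and in Pkn2, at -2.60 with the next at -4.16. Alpha rat 2 was the lowest alpha rat in Trib1, at -5.15 with the next at -4.19. Control rat 1 was the highest Control rat in Trib1, at -4.84 with the next at -5.41, and the lowest in Plpp1, at -1.92 with the next at 1.43, where 1 of its 2 spots was dim. NMBA rat 5, alone on its slide, was the lowest NMBA rat in Plpp1, at 0.34 with the next at 1.16.

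Rasd1 differed between 2 tocopherol groups that both received NMBA: gamma-enriched was below alpha by -1.38 on the log2 scale, past the threshold of limma's test of that difference. Both groups served in choosing the gene. With slide as a fixed block the difference was -0.65 ± 0.54 and not past the threshold, and the call was lost also without alpha rat 1, 2 or 5 or gamma-enriched rat 2 or 5.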

How the results depend on the processing

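Leaving out each rat in turn kept the 27 differences from NMBA above 0 (27 to 27), a sign that the choice of the genes largely fixed. All 90 differences of the 9 genes (10 contrasts) kept direction and side of the threshold under quantile normalization, the deposited value table, no filter on dim probes, the mean of a gene's probes and the rat number as a replicate block. Requiring a probe above background on all arrays left 5 genes. Of their differences from NMBA 15 of 15 were above 0, again largely fixed by the choice. The calls went to 0 in alpha against Control and 0 in gamma-enriched against alpha. Nfic and Trib1, called in alpha against Control, were not among those 5, and Rasd1 lost its call at an equal difference (-1.38). Normexp moved 13 of 90 values, all of them differences of tocopherol groups from NMBA and all toward 0. Nfic in alpha went to 1.37, Pds5a in gamma-enriched to 0.60 and Parpbp in delta to 0.34. Values not counted as moved shrank too. In NMBA against Control, Nfic went from -0.90 to -0.29 and Pds5a from -0.66 to -0.08. Trib1 went there from -0.65 to -0.29 and Parpbp from -0.71 to -0.26.

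With slide as a fixed block, 18 values moved and Pkn2 in gamma-enriched against NMBA reversed to -0.02, as it did also without the dim Plpp1 spot (-0.02). Signs turned too for Pkn2 in alpha and delta (-0.60 and -0.43), Dbf4 in alpha (-0.23) and Ctxn3 in gamma-enriched (-0.08). Members called against Control were then 1 in each of alpha, delta and gamma-enriched, all Plpp1, and 0 in each without the dim spot. Plpp1 was then at -0.40 ± 0.37 in alpha, -0.21 ± 0.32 in delta and -0.22 ± 0.28 in gamma-enriched. Gamma-enriched against alpha had 0 calls either way. Slide as a random block gave 1 call in gamma-enriched against Control, and the array column as a covariate gave 2 there and 2 in gamma-enriched against alpha. Fitting only the groups compared gave 0 in alpha against Control and 0 in gamma-enriched against alpha. Leaving out rats gave 1 to 2 calls in alpha against Control, 0 to 1 in gamma-enriched against Control and 0 to 2 in gamma-enriched against alpha.

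For the 79 relatives, calls in alpha against NMBA were 2, and 1 under quantile normalization, the value table, the mean of probes, only the groups compared and the replicate block, 0 with slide fixed (with or without the dim spot), and 1 to 2 without single rats. In delta 0 became 2 (quantile), 1 (value table), 3 (no filter), 2 (mean of probes), 3 (slide random), 5 (array column) and 0 to 1 without single rats. In gamma-enriched 4 became 2 (quantile), 8 (no filter), 0 (slide fixed, with or without the dim spot), 8 (slide random), 2 (only the groups compared), 1 (replicate block), 7 (array column) and 1 to 5 without single rats. The cause of these changes was not tested. No slide held NMBA and tocopherol rats together, so no value within 1 slide exists for them. Nfic, Pds5a and Parpbp stood above background in at most 2 of 5 NMBA rats, so their NMBA levels are near the limit of the measurement. Trib1 did so in 3 of 5, so part of its NMBA levels are near that limit too.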
